A study of Mus musculus with 8 samples.

Results

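The RNF genes encode proteins with a RING finger, a zinc-binding fold of cysteines and histidines that most of the cell's ubiquitin ligases carry. The rule that picks them reads names only, and takes the genes of the deposited table whose symbol is Rnf followed by a number. Pseudogenes were left out, as were *Rnf7* and *Rnf31*, whose proteins work inside larger ligase complexes. The rule found 83 of the 41709 genes, and 58 of the 83 reached 1 TPM (a length-corrected share of transcripts that sums to 1000000 in each muscle) in 4 or more muscles out of 8 and could be tested. The 25 others were too low for the test and are described at the end.

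Total mRNA was sequenced from 8 tibialis anterior (TA) muscles, which is a fast muscle of the lower leg, of C57BL/6J male mice that were 3 months old. In each mouse, a pool of 4 siRNAs (short RNAs that direct the cleavage of a matching mRNA) against *Uba1* was electroporated into the TA of a single leg (siUBA1, 4 muscles). A pool of non-targeting (NT) siRNAs was electroporated into the TA of the other leg (siNT, 4 muscles), and the muscles were collected 7 days later. Both groups therefore share the electroporation, the strain, the sex and the age, and equal replicate numbers mark the legs of the same mouse. All siNT muscles carry the letter R in their names and all siUBA1 muscles the letter L, so that leg and siRNA cannot be told apart. The treatment tags of siUBA1 replicates 2, 3 and 4 read UBA2, UBA3 and UBA4, whereas their titles, by which the muscles were grouped, read UBA1. No promoter limits the siRNAs to myofibers, and RNA was taken from whole muscle, so that fewer cells of a type and less RNA per cell cannot be told apart.

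Ubiquitin reaches its substrates through a chain of enzymes. An E1 enzyme, in most reactions UBA1, activates ubiquitin and passes it to an E2 conjugating enzyme, and an E3 ligase brings the charged E2 to the substrate. RING ligases hold E2 and substrate side by side, whereas RING-between-RING (RBR) ligases first take the ubiquitin onto a cysteine of their own. RNF ligases act in settings as different as histone ubiquitination, DNA repair, quality control at the endoplasmic reticulum (ER), rescue of stalled ribosomes, Wnt signaling and the sensing of viral RNA. The comparison asks whether their mRNA levels differed between muscles in which the E1 mRNA was depleted and their contralateral controls.

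Sequences upstream of a transcription start site are shown for *Rnf126*, *Rnf128* and *Rnf135*, the members with the smallest unadjusted p among those that were higher in siUBA1 muscles, which were picked after their values were seen. They come from the RefSeq promoter table of GRCm38.p6, cut to the part upstream of the start of the canonical GENCODE transcript, and each was matched exactly and once on its chromosome of GRCm39. The stretch of *Rnf126* lies at chr10:79602882-79603036 (minus strand), that of *Rnf128* at chrX:138511119-138511368 (plus strand), inside the gene as annotated but upstream of the start of its canonical transcript, and that of *Rnf135* at chr11:80074445-80074641 (plus strand). Capitals mark the GC box GGGCGG, the motif that Sp1-type factors bind, read on either strand, and lower case is the remaining sequence from 5′ to 3′.
*Rnf126*: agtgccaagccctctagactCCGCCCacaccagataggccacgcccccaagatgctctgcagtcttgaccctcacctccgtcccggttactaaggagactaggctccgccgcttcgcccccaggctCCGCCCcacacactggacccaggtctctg
*Rnf128*: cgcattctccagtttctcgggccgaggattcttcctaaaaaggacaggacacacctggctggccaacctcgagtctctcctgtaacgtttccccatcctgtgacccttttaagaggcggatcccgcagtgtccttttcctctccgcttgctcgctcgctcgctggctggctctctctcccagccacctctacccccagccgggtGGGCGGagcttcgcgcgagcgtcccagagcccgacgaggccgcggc
*Rnf135*: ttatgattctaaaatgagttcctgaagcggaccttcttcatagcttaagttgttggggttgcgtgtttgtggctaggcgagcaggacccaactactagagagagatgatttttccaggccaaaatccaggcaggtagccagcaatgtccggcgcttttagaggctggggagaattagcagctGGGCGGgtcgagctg
The stretch of *Rnf126* holds 2 GC boxes in 155 bases, that of *Rnf128* 1 in 250 bases and that of *Rnf135* 1 in 197 bases. No stretch holds the letters CCAAT.

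The same search was run over the RefSeq promoter windows, which reach from 250 bases before to 50 bases after each start. Windows were given for 45 of the 58 tested members (60 windows, since some genes have several starts) and for 9046 of the 11530 tested genes (11580 windows). GGGCGG stood in 76.7% of the member windows, against 62.5% of the windows of tested genes and 35.7% of the 32851 windows of all genes. CCAAT stood in 35.0% of the member windows and 37.3% of those of tested genes, and TATAAA in 13.3% and 7.52%. The E-box CACGTG stood in 3 of the 60 member windows and in 10.2% of those of tested genes. TTCNNNGAA, the core letters of a STAT site, stood in 6 of the 60 member windows and in 6.56% of those of tested genes. The NF-kB type site GGGACTTTC stood in 0 of the 60 member windows and in 0.311% of the windows of tested genes. All motifs were read on both strands, none of them holds another, and a match is a description of the letters and not of a bound site.

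*Uba1*, the target of the siRNAs, checks the group labels. It was at 60.6, 59.0, 63.6 and 59.1 TPM in siNT replicates 1 to 4, and at 18.1, 6.77, 15.8 and 23.1 TPM in siUBA1 replicates 1 to 4. It was lower in 4 of 4 legs, and the groups did not overlap. The log2 fold change (log2FC) of TPM + 1 was -1.98 (SE 0.290, adjusted p = 0.0527 from limma, corrected by the Benjamini-Hochberg method over all genes tested), and the adjusted p was 0.0278 with the replicate block, in which each siUBA1 muscle is set against the other leg of its mouse.

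TPM keep no number of reads, so that the depth behind them is unknown. Transcripts of the mitochondrial genome took from 42.1% to 45.7% of the TPM in siNT muscles and from 39.9% to 50.3% in siUBA1 muscles. All 6 myofiber markers were present, with summed levels from 104895 to 112139 TPM in siNT and from 81724 to 115511 TPM in siUBA1 muscles. Summed markers of fibroblasts ranged from 227 to 449 TPM in siNT and from 315 to 554 TPM in siUBA1 muscles, those of endothelial cells from 80.2 to 113 and from 91.1 to 111 TPM, and those of leukocytes from 14.7 to 31.3 and from 9.66 to 33.1 TPM. Schwann cell markers ranged from 34.3 to 56.5 and from 26.5 to 65.2 TPM, smooth muscle and pericyte markers from 130 to 184 and from 139 to 161 TPM, and satellite cell markers from 2.61 to 4.32 and from 3.11 to 4.07 TPM. Erythroid markers ranged from 1148 to 4113 and from 1110 to 2158 TPM, adipocyte markers from 5.17 to 10.03 and from 0.837 to 8.18 TPM, and cardiac markers from 1.30 to 1.81 and from 0.822 to 1.63 TPM. In each of these lists the ranges of the groups overlapped. Set leg against leg, however, the fibroblast sum was higher in the siUBA1 leg of 4 of 4 mice, as were *Col1a1*, *Pdgfra* and *Dcn* singly, and the cardiac sum was lower in 4 of 4. *Col1a1* had an unadjusted p of 0.0947 without and 0.00171 with the replicate block, *Pdgfra* of 0.290 and 0.0099, and *Dcn* of 0.275 and 0.0564 (limma). Of all genes tested, 32.2% were higher and 2.98% lower in 4 of 4 mice. With the block, 22.4% of them were higher at an unadjusted p under 0.05. With the typical gene set equal between muscles (median-ratio scaling, no block), *Col1a1*, *Pdgfra* and *Dcn* had unadjusted p of 0.145, 0.428 and 0.673 (limma). The part of these cells in the differences of RNF genes was not tested.

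The mRNA levels of the RNF genes spanned a wide range in muscle. Since TPM are divided by transcript length, levels can be set side by side between genes. In the mean of the 8 muscles, 25 members were at 10 TPM or more, 33 were between 1 and 10 TPM and 25 were below 1 TPM. The 10 members with the highest levels held 53.2% of the summed TPM of the family.

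*Rnf187*, which encodes a coactivator of the AP-1 factor c-Jun, had the highest mean over the 8 muscles. It was at 68.2, 73.1, 73.2 and 68.3 TPM in siNT and 88.2, 73.2, 83.2 and 72.4 TPM in siUBA1 replicates 1 to 4. *Rnf10*, whose product ubiquitinates proteins of the small ribosomal subunit on stalled ribosomes, was at 64.5, 68.0, 65.2 and 67.0 TPM and at 73.7, 72.3, 75.7 and 66.6 TPM. *Rnf11*, which encodes an adaptor of NEDD4-type ligases, was at 63.6, 60.1, 61.5 and 69.7 TPM and at 73.5, 72.1, 74.5 and 67.9 TPM. The ranges of *Rnf10* and *Rnf11* overlapped in both groups, so that their order is not resolved by these muscles. The range of *Rnf187* overlapped that of *Rnf11* in both groups and that of *Rnf10* in siUBA1 muscles, so that its rank holds for the mean only.

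*Rnf115*, whose product works with the chaperone BAG6 and on endosomes, came next by its mean, with a range that overlapped that of *Rnf11* in siNT muscles. It was at 49.7, 47.5, 61.8 and 52.2 TPM in siNT and at 59.5, 40.7, 63.2 and 44.8 TPM in siUBA1 replicates 1 to 4. Its siUBA1 muscles spread more than its siNT muscles (coefficient of variation 21.1% against 11.9%), and it was higher in 2 legs and lower in the 2 others. *Rnf123*, which encodes the KPC1 ligase of the cell cycle inhibitor p27Kip1, was at 40.5 TPM in the mean of the 8 muscles. The 5 further members among the highest 10 were *Rnf14* (32.4 TPM), *Rnf114* (31.5 TPM), *Rnf126* (30.8 TPM), *Rnf166* (27.1 TPM) and *Rnf5* (23.2 TPM).

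**Figure D1:**
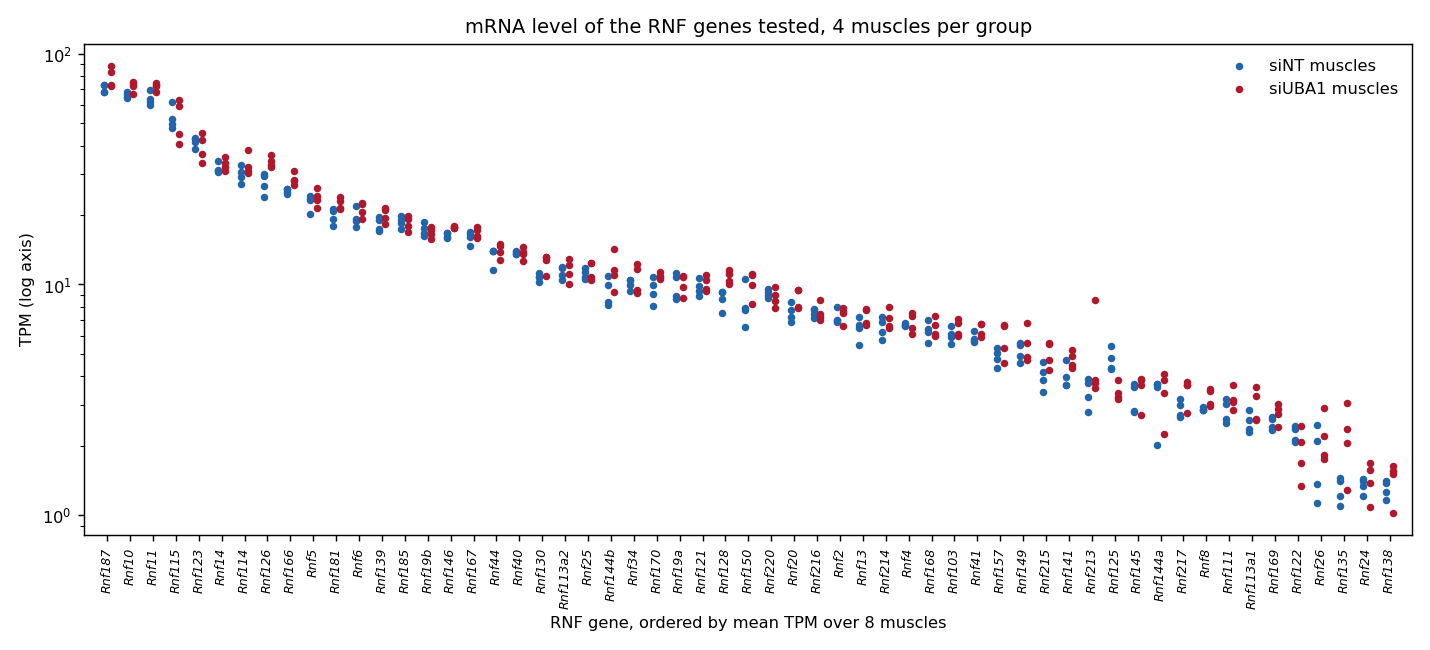
mRNA level in TPM (log axis) of 57 of the 58 RNF genes tested, ordered by their mean over the 8 muscles, with a blue point for each of the 4 siNT muscles and a red point for each of the 4 siUBA1 muscles. Levels run from the 75 TPM mean of *Rnf187* to the 1.37 TPM mean of *Rnf138*, and the single siUBA1 muscle that stands far above the others of its gene is *Rnf213* in replicate 3 (8.61 TPM).

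Summed over all 83 members, the level was 796, 805, 823 and 829 TPM in siNT replicates 1 to 4, and 917, 830, 937 and 831 TPM in siUBA1 replicates 1 to 4. The means were 813 ± 15.4 and 879 ± 56.3 TPM (SD, n = 4 muscles each). The legs differed most in the mice of replicates 1 and 3, whereas in replicate 4 both legs had nearly the same sum.

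No member passed an adjusted p of 0.05 in limma, whereas 0.0260% of all genes tested did (3 of 11530). The smallest adjusted p of a member was 0.143 (limma), that of *Rnf125*. At an unadjusted p under 0.05, 9 of 58 members (15.5%) were higher in siUBA1 muscles, beside 16.0% of all genes tested, and 1 member (1.72%) was lower, beside 1.98% of all genes. By the Kruskal-Wallis test, 10 members were higher (17.2%, beside 17.5% of all genes) and 1 was lower (1.72%, beside 1.71%) at an unadjusted p under 0.05, and none passed after adjustment. The members' shares lay close to those of all genes in both directions. The 95% interval of the log2FC lay within 0.58 on either side of 0 for 54 of the 58 members (93.1%), beside 85.7% of all genes. The intervals that reached farther were those of *Rnf135*, *Rnf213*, *Rnf150* and *Rnf26*.

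The log2FC was above 0 for 50 of the 58 members (86.2%) and for 81.8% of all genes. The median log2FC was 0.10 for the members and 0.11 for all genes, and the quartiles were 0.04 and 0.18 for the members and 0.03 and 0.18 for all genes. Members thus lay on the higher side to a similar extent as the whole table. Median-ratio scaling, which sets the typical gene equal between muscles, moved the median of all genes by -0.10. On that scale 31 members (53.4%) were above 0, beside 51.4% of all genes, with 2 members higher at an unadjusted p under 0.05 (3.45%, beside 4.57% of all genes) and 5 lower (8.62%, beside 6.11%). The 2 higher were *Rnf128* and *Rnf135*. The 5 lower were *Rnf125*, *Rnf122*, *Rnf123*, *Rnf220* and *Rnf19b*. Quantile normalization called 3 members higher (5.17%, beside 4.45% of all genes) and 5 lower (8.62%, beside 5.16%). The replicate block with median-ratio scaling called 3 higher (5.17%, beside 7.18%) and 6 lower (10.3%, beside 8.47%). Rescaling without mitochondrial genes called 15 of 59 members higher (25.4%, beside 21.2% of 12586 genes).

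**Figure D2:**
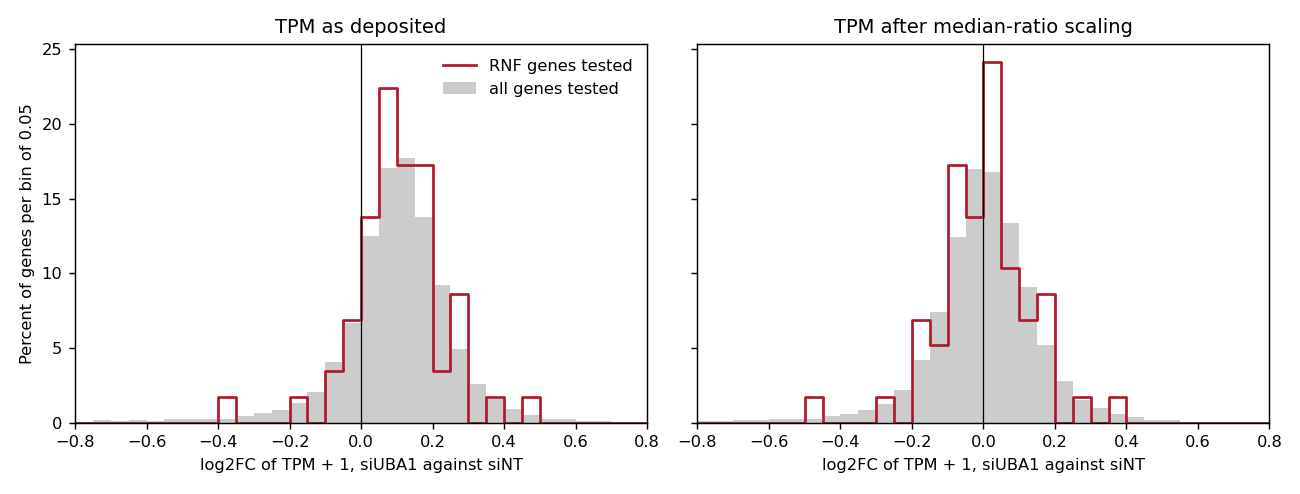
Percent of genes per bin of 0.05 in the log2FC of TPM + 1 (siUBA1 against siNT), for the 58 RNF genes tested (red line) and all 11530 genes tested (gray), with the TPM as deposited at the left and after median-ratio scaling at the right. Both distributions lie to the right of 0 as deposited (medians 0.10 and 0.11) and around 0 after scaling.

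The legs of single mice did not all give this picture. In replicate 1, 52 of the 58 members were higher in the siUBA1 leg (89.7%, beside 83.3% of all genes), with a median difference of 0.19 on the log2 scale for both. In replicate 3, 51 were higher (87.9%, beside 81.8%), with medians of 0.17 and 0.15. In replicate 2, 36 were higher (62.1%, beside 56.1%), with medians of 0.04 and 0.03. In replicate 4, 24 were higher (41.4%, beside 61.8%), with medians of -0.02 for the members and 0.04 for all genes. The SD of the 4 member medians was 0.10, as large as the median log2FC itself. In 4 of 4 mice, 17 of the 58 members were higher, beside 32.2% of all genes, and 2 of the 58 (*Rnf125* and *Rnf122*) were lower, beside 2.98% of all genes.

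**Figure D3:**
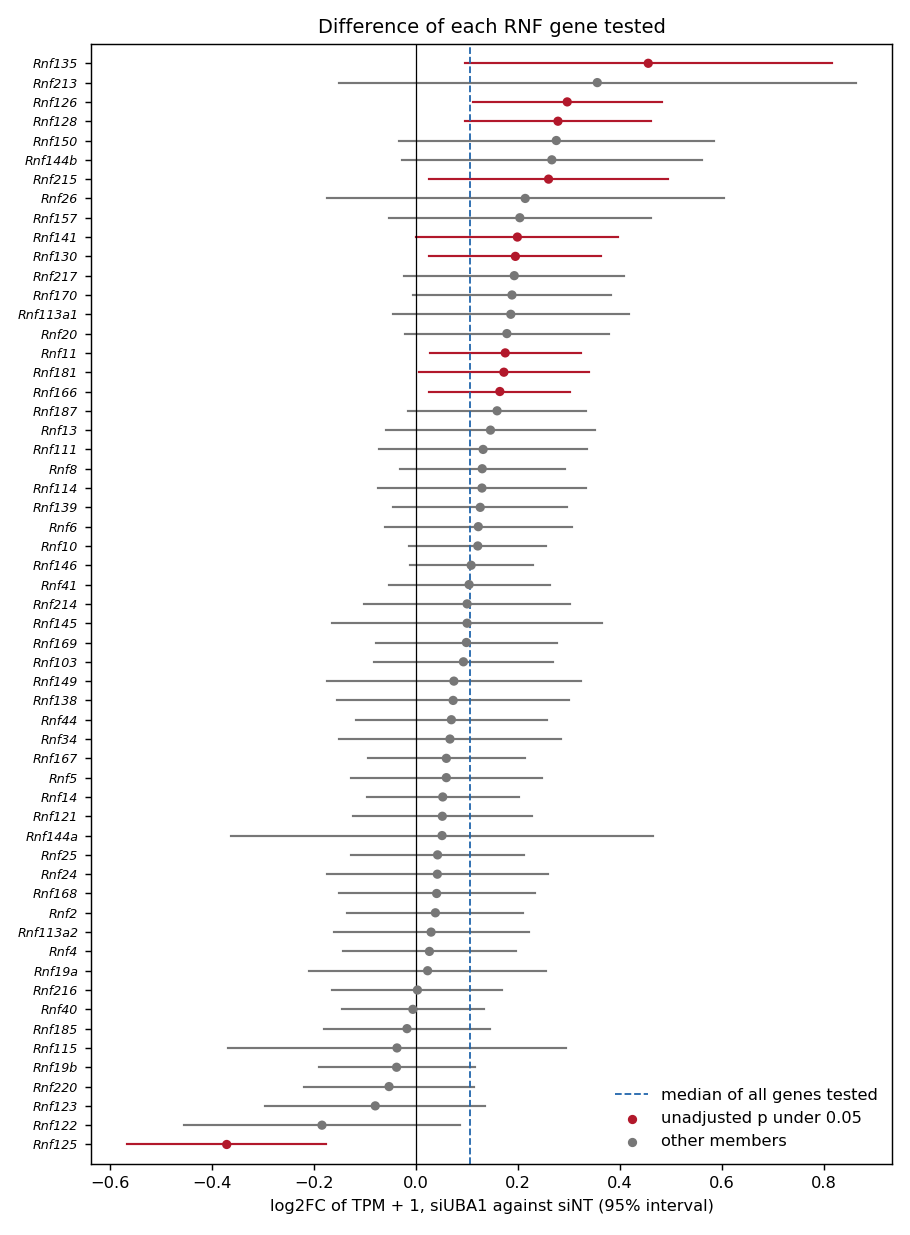
Log2FC of TPM + 1 in siUBA1 against siNT muscles for 57 of the 58 RNF genes tested, each with its 95% interval from limma. Red marks the 10 members at an unadjusted p under 0.05, and the dashed line is the median of all genes tested (0.11). Values run from -0.37 for *Rnf125* to 0.46 for *Rnf135*.

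The members listed as innate immune included the largest difference in each direction. That list was drawn up with earlier results of these data known, so this describes single genes and is no sign of a shared theme. All 5 listed members were tested, 4 were above 0 (4 also after median-ratio scaling) and 1 below, and 2 were higher (*Rnf135* and *Rnf128*) and 1 lower (*Rnf125*) at an unadjusted p under 0.05. Over all genes, 81.8% were above 0, 16.0% were higher and 1.98% lower by the same rules. Their median log2FC was 0.28, beside 0.11 for all genes, and 0.15 without siUBA1 replicate 3. None passed the adjusted p.

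*Rnf125* encodes a ligase that marks the viral RNA sensor RIG-I for degradation, and its gene lies on chromosome 18 of GRCm39 from 21077682 to 21120416 (plus strand). It was at 5.41, 4.81, 4.34 and 4.31 TPM in siNT replicates 1 to 4 and at 3.19, 3.24, 3.38 and 3.85 TPM in siUBA1 replicates 1 to 4. The groups did not overlap and it was lower in 4 of 4 mice. The means were 4.72 ± 0.512 and 3.41 ± 0.298 TPM (SD, n = 4 each), a log2FC of -0.37 (SE 0.0865, unadjusted p = 0.00188 and adjusted p = 0.143 from limma), and -0.48 relative to the median of all genes. It was the only tested member whose siUBA1 muscles all lay below its siNT muscles (1.72% of the members, beside 1.01% of all genes).

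*Rnf135* encodes Riplet, which ubiquitinates RIG-I to activate it, and lies on chromosome 11 from 80074642 to 80090851 (plus strand). It was at 1.45, 1.21, 1.41 and 1.09 TPM in siNT and at 2.38, 2.06, 3.07 and 1.29 TPM in siUBA1 replicates 1 to 4. It was higher in 4 of 4 mice, although siUBA1 replicate 4 lay within the siNT range. The means were 1.29 ± 0.168 and 2.20 ± 0.736 TPM (SD, n = 4 each), and the log2FC was 0.46 (SE 0.160, unadjusted p = 0.0186 and adjusted p = 0.208 from limma). With a pseudocount of 0.1 in place of 1, it was 0.67, since adding 1 to a level this low compresses the difference. Summed leukocyte markers were at 15, 22.8, 31.3 and 14.7 TPM in siNT and at 25.6, 9.66, 33.1 and 12.1 TPM in siUBA1 replicates 1 to 4, and their part in this difference was not tested.

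*Rnf213* encodes mysterin, a giant ligase with an ATPase core that is known from the vascular disorder moyamoya and from the defense against intracellular microbes. It was at 3.25, 2.81, 3.73 and 3.91 TPM in siNT and at 3.85, 3.73, 8.61 and 3.57 TPM in siUBA1 replicates 1 to 4. The high value of siUBA1 replicate 3 set its log2FC of 0.36 (SE 0.225, unadjusted p = 0.148 and adjusted p = 0.400 from limma). Summed leukocyte markers were at 33.1 TPM in that muscle and at 31.3 TPM in siNT replicate 3, where *Rnf213* was at 3.73 TPM. The part of leukocytes in the difference was not tested. Without siUBA1 replicate 3 the log2FC was 0.10.

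*Rnf128*, which encodes the GRAIL ligase known from T cell anergy, was higher with an unadjusted p under 0.05 in each of the 17 alternatives run. It was at 9.26, 7.53, 8.68 and 9.31 TPM in siNT and at 11.5, 10.01, 11.1 and 10.4 TPM in siUBA1 replicates 1 to 4. The groups did not overlap, it was higher in 4 of 4 mice, and the means were 8.70 ± 0.827 and 10.7 ± 0.674 TPM (SD, n = 4 each). The log2FC was 0.28 (SE 0.0812, unadjusted p = 0.00731 and adjusted p = 0.173 from limma) and 0.17 after median-ratio scaling. The gene lies on chromosome X from 138463952 to 138574139 (plus strand). *Rnf114*, the remaining member of the list, differed by a log2FC of 0.13 (95% interval from -0.08 to 0.33).

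**Figure D4:**
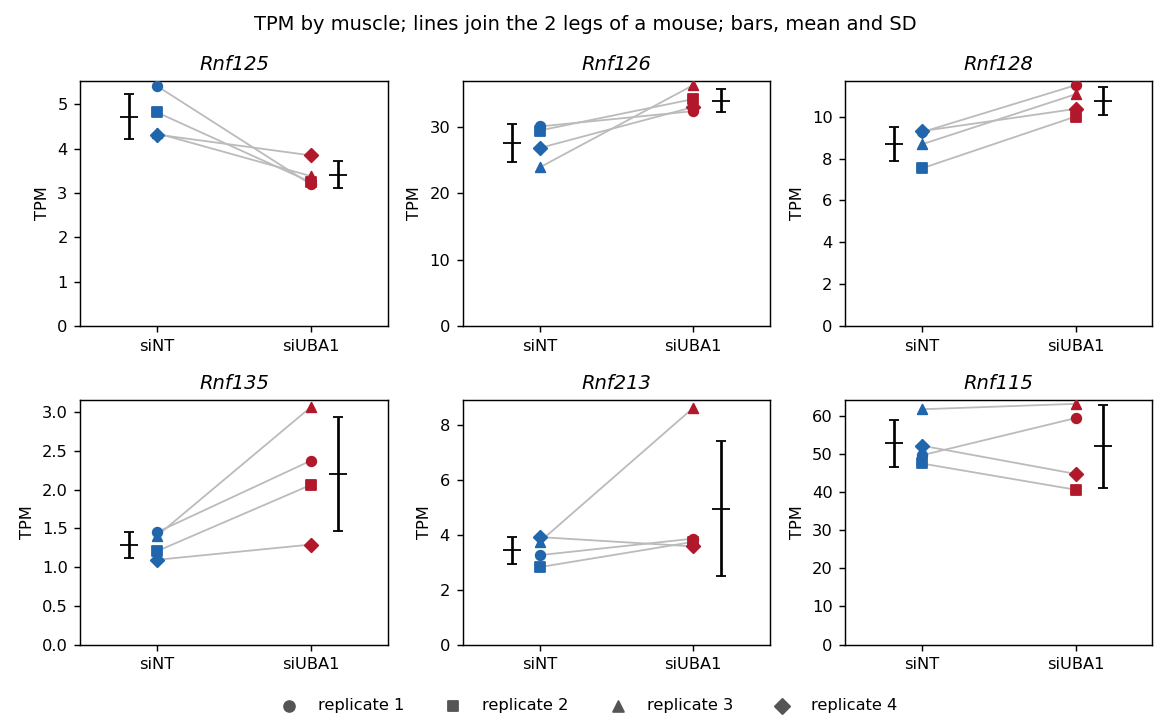
TPM of 6 RNF genes in each muscle, with gray lines that join the legs of a mouse, marker shapes for replicates 1 to 4, and bars for the mean and SD of each group (4 muscles each, axes from 0). The siUBA1 leg lies below the siNT leg in 4 of 4 mice for *Rnf125* and above it in 4 of 4 for *Rnf126*, *Rnf128* and *Rnf135*, whereas *Rnf213* stands out in siUBA1 replicate 3 alone (8.61 TPM) and *Rnf115* goes both ways.

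The members that act in translation and protein quality control were the most abundant list, with a summed mean of 217 TPM for 6 genes. Of the 6, 5 were above 0 (3 after median-ratio scaling) and 1 below, and 2 (*Rnf126* and *Rnf181*) were higher at an unadjusted p under 0.05 and none after median-ratio scaling. Of all genes, 81.8% were above 0 (51.4% after scaling) and 16.0% were called higher (4.57%). The median log2FC of the list was 0.09, or 0.06 without siUBA1 replicate 3. *Rnf126* encodes the BAG6 partner that ubiquitinates membrane proteins stranded in the cytosol, and lies on chromosome 10 from 79591886 to 79602881 (minus strand). It was at 30.1, 29.4, 23.9 and 26.8 TPM in siNT and at 32.4, 34.2, 36.3 and 33.0 TPM in siUBA1 replicates 1 to 4. The groups did not overlap, it was higher in 4 of 4 mice, and the log2FC was 0.30 (SE 0.0823, unadjusted p = 0.00551 and adjusted p = 0.165 from limma). After median-ratio scaling it was 0.18, with an unadjusted p of 0.0853 (limma). *Rnf115*, its paralog, had a log2FC of -0.04 with a 95% interval from -0.37 to 0.29, and the difference between both genes was not tested.

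*Rnf181* was at 17.9, 19.2, 21.3 and 20.8 TPM in siNT and at 23.9, 21.4, 23.1 and 21.3 TPM in siUBA1 replicates 1 to 4, and was higher in 4 of 4 mice with a log2FC of 0.17, or 0.06 after median-ratio scaling (unadjusted p of 0.364 from limma). Its lowest siUBA1 muscle lay just below its highest siNT muscle. *Rnf10* had a log2FC of 0.12 (95% interval from -0.01 to 0.26). *Rnf14* and *Rnf25*, whose products act on translation factors trapped on stalled ribosomes, had log2FCs of 0.05 and 0.04 and overlapped between the groups.

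Of the 11 members in chromatin and DNA repair, all were tested, 10 were above 0 (6 after median-ratio scaling) and 1 below, and none had an unadjusted p under 0.05. This stands beside 81.8% of all genes above 0 (51.4% after scaling), 16.0% called higher and 1.98% called lower. Their median log2FC was 0.07, or 0.05 without siUBA1 replicate 1. *Rnf2*, the catalytic RING1B of Polycomb complex 1, which ubiquitinates histone H2A, was at 7.20 ± 0.512 TPM in siNT and 7.42 ± 0.568 TPM in siUBA1 muscles (SD, n = 4 each). *Rnf20* and *Rnf40*, whose products together ubiquitinate histone H2B, gave log2FCs of 0.18 (95% interval from -0.02 to 0.38) and -0.01 (from -0.15 to 0.13). *Rnf20* was at 7.21, 6.86, 8.44 and 7.79 TPM in siNT and at 9.48, 7.96, 9.47 and 7.92 TPM in siUBA1 replicates 1 to 4, so that it was higher in 4 of 4 mice with groups that overlapped. *Rnf8*, which starts the ubiquitin signal at DNA breaks, was at 2.87, 2.95, 2.85 and 2.86 TPM in siNT and at 3.46, 2.98, 3.52 and 3.04 TPM in siUBA1 replicates 1 to 4. Its groups did not overlap because its siNT muscles were so close together, but the log2FC was 0.13 with an unadjusted p of 0.104 (limma). *Rnf168*, which extends that signal, had a log2FC of 0.04.

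Of the 11 members of the ER membrane, 8 were tested, 7 were above 0 (4 after median-ratio scaling) and 1 below, and none had an unadjusted p under 0.05, where 81.8% of all genes were above 0 (51.4% after scaling) and 16.0% were called higher. Their median log2FC was 0.10, or 0.06 without siUBA1 replicate 1. *Rnf5* and *Rnf185*, related ligases that clear misfolded membrane proteins, had log2FCs of 0.06 and -0.02. *Rnf139*, which is linked to sterol sensing, had 0.13, and *Rnf170*, which acts on inositol trisphosphate receptors, had 0.19 (unadjusted p = 0.057 from limma). *Rnf26* varied widely within the groups, with coefficients of variation of 35.0% in siNT and 24.2% in siUBA1 muscles.

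The PA-TM-RING ligases are membrane proteins with a protease-associated domain on the outer side and a RING in the cytosol. Of 9 listed, 6 were tested and all 6 were above 0, with a median log2FC of 0.17 and 2 (*Rnf128* and *Rnf130*) at an unadjusted p under 0.05, where 81.8% of all genes were above 0 and 16.0% were called higher. After median-ratio scaling 4 of the 6 were above 0 and only *Rnf128* kept an unadjusted p under 0.05, beside 51.4% and 4.57% of all genes. *Rnf130*, the relative of the fly gene goliath, was at 10.8, 11.2, 10.2 and 10.8 TPM in siNT and at 13.1, 12.8, 13.2 and 10.9 TPM in siUBA1 replicates 1 to 4. Of its siUBA1 muscles, only replicate 4 lay within the siNT range, and the log2FC was 0.19 (SE 0.0748, unadjusted p = 0.0281 and adjusted p = 0.232 from limma), or 0.08 after median-ratio scaling (unadjusted p of 0.239 from limma). *Rnf150* was at 7.76, 7.94, 6.57 and 10.6 TPM in siNT and at 8.21, 11.02, 9.92 and 11.1 TPM in siUBA1 replicates 1 to 4. It was higher in 4 of 4 mice while the groups overlapped, with a log2FC of 0.27 and an unadjusted p of 0.0757 (limma), or 0.0247 with the replicate block.

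All 7 RBR ligases were tested, 6 were above 0 (2 after median-ratio scaling) and 1 below, with none at an unadjusted p under 0.05. Of all genes, 81.8% were above 0 (51.4% after scaling) and 16.0% were called higher. The median log2FC of the list was 0.05, but its sign was not stable, since it was -0.0093 without siUBA1 replicate 3, 0.0063 without siUBA1 replicate 1, and 0.08 without siNT replicate 4 or without siUBA1 replicate 2. *Rnf144b*, which is linked to p53, was at 8.18, 8.41, 9.99 and 10.8 TPM in siNT and at 9.27, 10.9, 14.3 and 11.5 TPM in siUBA1 replicates 1 to 4. It was higher in 4 of 4 mice while the groups overlapped, with a log2FC of 0.27 and an unadjusted p of 0.0715 (limma), or 0.0141 with the replicate block. Without siUBA1 replicate 3, the muscle at 14.3 TPM, the log2FC was 0.16 with an unadjusted p of 0.192 (limma without the block). *Rnf19b* was the member below 0, at -0.04 (-0.0036 without siNT replicate 3 and -0.0076 without siUBA1 replicate 4), and after median-ratio scaling it was at -0.15, where it was the only lower call of the list, beside 6.11% of all genes.

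The RNF114-type ligases, which share a RING followed by further zinc fingers and a ubiquitin-binding motif, had 4 of 5 members tested, 3 above 0 (3 also after median-ratio scaling) and 1 below, and a median log2FC of 0.10, or 0.04 without siUBA1 replicate 2. Above 0 were 81.8% of all genes, or 51.4% after scaling. *Rnf166* was at 24.8, 26.1, 25.05 and 26.0 TPM in siNT and at 31.0, 28.1, 28.4 and 27.1 TPM in siUBA1 replicates 1 to 4. Its groups did not overlap, and its log2FC was 0.16 (SE 0.0615, unadjusted p = 0.0251 and adjusted p = 0.223 from limma), or 0.05 after median-ratio scaling. *Rnf125* belongs to this list too, so that 1 member was higher and 1 lower at an unadjusted p under 0.05, beside 16.0% and 1.98% of all genes. After median-ratio scaling only the lower call was left.

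In Wnt and TGF-beta signaling, 4 of 6 members were tested, 3 were above 0 (2 after median-ratio scaling) and 1 below, beside 81.8% (51.4%) of all genes above 0, and the median log2FC was 0.12. Higher at an unadjusted p under 0.05 was 1 member, beside 16.0% of all genes, and after scaling none. *Rnf11* had a log2FC of 0.17 (SE 0.0658, unadjusted p = 0.0257 and adjusted p = 0.225 from limma). After median-ratio scaling its log2FC was 0.06 with an unadjusted p of 0.417 (limma). In 3 of 4 mice it was higher, and siUBA1 replicate 4 stood inside the siNT range. *Rnf146*, which destroys axin after it has been marked with poly-ADP-ribose, was at 15.9, 16.7, 16.1 and 16.7 TPM in siNT and at 17.7, 17.5, 17.6 and 17.99 TPM in siUBA1 replicates 1 to 4. Its groups did not overlap, but its log2FC of 0.11 equaled the median of all genes and its value was -0.0049 after median-ratio scaling. *Rnf220*, which is linked to beta-catenin, was at -0.05, or -0.16 after median-ratio scaling. It was at -0.0090 without siUBA1 replicate 2 and at -0.10 without siUBA1 replicate 3.

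Over the whole family, 6 of the 58 members (10.3%) had siUBA1 muscles that all lay above the siNT muscles, beside 10.6% of all genes. *Rnf126*, *Rnf128*, *Rnf166*, *Rnf146* and *Rnf8* were among them.

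The list of striated muscle and heart had a single tested member, *Rnf123*. It was at 38.7, 41.5, 43.2 and 42.7 TPM in siNT and at 42.1, 33.5, 45.4 and 36.7 TPM in siUBA1 replicates 1 to 4, so that 2 mice were higher and 2 lower. Its log2FC was -0.08 (95% interval from -0.30 to 0.14), and -0.20 after median-ratio scaling with an unadjusted p of 0.0132 (limma). As deposited it moved both ways with single muscles, to -0.0072 without siUBA1 replicate 2 and to -0.15 without siUBA1 replicate 3. *Rnf207*, known from the heart, was at 0.0476 TPM in the mean of the 8 muscles. In the neural list, 1 of 4 members was tested, *Rnf157*, with a log2FC of 0.20 and an unadjusted p of 0.108 (limma). None of the 8 germline and gonad members and none of the 6 epithelial members reached the level for testing, and their summed means were 0.890 and 0.400 TPM.

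Of the 16 members in none of these lists, 11 were tested, 10 were above 0 and 1 below, with a median log2FC of 0.10 and 2 higher at an unadjusted p under 0.05, beside 81.8% of all genes above 0 and 16.0% higher. *Rnf215* was at 4.60, 3.85, 4.19 and 3.43 TPM in siNT and at 5.53, 4.70, 5.57 and 4.25 TPM in siUBA1 replicates 1 to 4. It was higher in 4 of 4 mice, with a log2FC of 0.26 (SE 0.104, unadjusted p = 0.0331 and adjusted p = 0.243 from limma). *Rnf141* had a log2FC of 0.20 with an unadjusted p of 0.0497 (limma), and its groups overlapped. After median-ratio scaling the values were 0.16 for *Rnf215* and 0.10 for *Rnf141*, with unadjusted p of 0.0826 and 0.214 (limma). *Rnf122* was the member below 0. It was at 2.45, 2.11, 2.37 and 2.07 TPM in siNT and at 2.44, 1.69, 2.07 and 1.34 TPM in siUBA1 replicates 1 to 4, lower in 4 of 4 mice, with a log2FC of -0.18 (95% interval from -0.46 to 0.09). In replicate 1 its legs differed by very little. The log2FC was -0.09 without siUBA1 replicate 4 and -0.27 without siUBA1 replicate 1 (unadjusted p of 0.418 and 0.0364 from limma). With median-ratio scaling it was -0.27 (unadjusted p of 0.0219 from limma).

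With the replicate block, again no member passed an adjusted p of 0.05 (smallest adjusted p = 0.0962 from limma), whereas 0.494% of all genes did. At an unadjusted p under 0.05, 9 members (15.5%) were higher, beside 22.4% of all genes, and 1 (1.72%) was lower, beside 2.80%. Of the 10 members at an unadjusted p under 0.05 without the block, 7 kept it. *Rnf11*, *Rnf181* and *Rnf141* did not (unadjusted p of 0.0509, 0.0607 and 0.0502 from limma), and *Rnf144b*, *Rnf150* and *Rnf20* were added, *Rnf20* with an unadjusted p of 0.0467 (limma). With the block and median-ratio scaling together, *Rnf144b*, *Rnf150* and *Rnf20* were no longer under 0.05 (unadjusted p of 0.0906, 0.142 and 0.277 from limma).

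The E2 enzymes and protein partners with which RNF ligases work were read from the same fit. Of 41 genes listed, 36 were tested, of which 32 were above 0 (beside 81.8% of all genes) and 4 below, with a median log2FC of 0.12 beside 0.11 for all genes. None passed an adjusted p of 0.05 in limma. At an unadjusted p under 0.05, 8 were higher (*Bmi1*, *Yaf2*, *Trp53bp1*, *Herc2*, *Tnks*, *Tnks2*, *Insig2* and *Mavs*), where 16.0% of all genes were, and 1 was lower (*Insig1*), where 1.98% were. After median-ratio scaling, 19 of the 36 were above 0 (beside 51.4% of all genes), with 1 higher and 3 lower at an unadjusted p under 0.05 (beside 4.57% and 6.11%). *Insig1*, the sterol-regulated anchor of SREBP processing at the ER, was at 9.93 ± 1.93 TPM in siNT and 7.79 ± 0.327 TPM in siUBA1 muscles (SD, n = 4 each), with a log2FC of -0.30.

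The proteins were translated from the canonical GENCODE coding sequences, which were found for 82 of the 83 members, to check the family name. A RING consensus of spaced cysteines and histidines was found in 78 of them and not in *Rnf216*, *Rnf41*, *Rnf144a* and *Rnf144b*, for which these letters at this spacing are absent. The proteins ran from 112 to 5152 residues with a median of 348.5, and the longest was that of *Rnf213*. The RING was of the HC type in 50 members, with a cysteine at the fifth zinc-binding position, and of the H2 type in 28, with a histidine there. With the protein cut into 3 equal parts, the RING began in the part nearest the N terminus in 31 of the 50 HC members and in 1 of the 28 H2 members, and in the part nearest the C terminus in 14 and 13. Of the tested members, 25 of 31 HC and 21 of 23 H2 members had a log2FC above 0, beside 81.8% of all genes, with medians of 0.10 and 0.12. After median-ratio scaling these counts were 16 and 13, beside 51.4% of all genes.

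Paralogs with similar proteins could differ widely in level. *Rnf113a1* and *Rnf113a2*, whose proteins are 84.6% identical, were at 2.77 and 11.4 TPM, a ratio of 0.243 (from 0.194 to 0.280 over the 8 muscles). How reads shared by near-identical copies were divided is not given in the sources used here, so that the split between these genes is uncertain. *Rnf5* and *Rnf185* (58.6% identical) were at 23.2 and 18.5 TPM, and *Rnf20* and *Rnf40* (58.4%) at 8.14 and 13.7 TPM. The ratio of *Rnf144a* to *Rnf144b* (53.1% identical) was 0.319 and that of *Rnf19a* to *Rnf19b* (48.7%) was 0.586. *Rnf2* was at 0.665 of its paralog *Ring1* (53.7% identical). The ratio was 1.70 for *Rnf115* to *Rnf126* (43.7% identical), 1.17 for *Rnf114* to *Rnf166* (43.5%) and 0.418 for *Rnf13* to *Rnf167* (44.1%).

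Among the more distant relatives, *Rnf128* and *Rnf130* stood at 1.83 and 2.19 times *Rnf149* (36.1% and 35.9% identical). *Rnf139* stood at 5.67 times *Rnf145* (26.4%), and *Rnf11* at 49.0 times *Rnf24*, whose proteins had the lowest identity of all these pairs (20%). In all these pairs but *Rnf114* and *Rnf166*, the gene with the higher mean was the higher in each of the 8 muscles, whereas the ratio of *Rnf114* to *Rnf166* ran from 0.980 to 1.36.

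The 25 members below the level for testing complete the family. *Rnf224*, *Rnf186*, *Rnf212*, *Rnf133*, *Rnf148* and *Rnf7l* were listed at 0 in all 8 muscles, which for values without read counts does not exclude a low level. The 19 others had single values up to 1.18 TPM, that of *Rnf212b* in siUBA1 replicate 1. The smallest exact p among the 25 was that of *Rnf152*, a lysosomal ligase that restrains mTORC1. It was at 0.223, 0.204, 0.290 and 0.226 TPM in siNT and at 0.397, 0.232, 0.502 and 0.293 TPM in siUBA1 replicates 1 to 4 and was higher in 4 of 4 mice, with p = 0.0571 (exact permutation test, two-sided, unadjusted), where 4 muscles against 4 cannot give less than 0.0286. *Rnf43*, the Wnt receptor ligase, was at 0.0951 TPM in the mean of the 8 muscles.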

How the data were processed

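The deposited table holds TPM of 41709 genes in 8 muscles, 4 per group. The authors trimmed the reads (Phred 20, at least 50 bases) of a TruSeq library sequenced on an Illumina instrument (100 bp), used CLC Genomics Workbench 20.0.4 for alignment to GRCm39 and deposited TPM per gene. The annotation and the treatment of reads that match several genes are not given in the sources used here, and the TPM keep no depth. TPM sum to 1000000 per muscle, so a shift in abundant genes, such as mitochondrial ones, moves all others.

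Differences were tested with limma 3.58.1 in R 4.3.3 (linear model, empirical Bayes with a trend) on log2(TPM + 1), over the 11530 genes that reached 1 TPM in 4 muscles or more, with Benjamini-Hochberg adjustment over all of them and no covariate. Adding 1 understates the differences of low genes. For RNA-seq the study's methods name a test without pairing. Members below the filter were tested by an exact permutation test. The test was also run on simulated data, with a log2 change of 2 planted in 200 of 11530 genes. It recovered 99.5% of these at an adjusted p under 0.05, and 3.40% of its calls were false (limma). The largest difference of an RNF gene was 0.46, so this run does not tell how often differences of that size would be found. Same-numbered legs come from the same mouse, by the labels and the study's methods. Their deviations from the group means correlated at -0.00037, 0.20, 0.58 and 0.54 in replicates 1 to 4, and the fit with the replicate block is an alternative. Other alternatives were a pseudocount of 0.1, no filter, a mean of 5 TPM or more, median-ratio scaling (alone and with the block), quantile normalization, rescaling without mitochondrial genes, the Kruskal-Wallis test and leaving out each muscle.

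The rule for members reads names only, but the family (and so its members), role lists, partners and markers were chosen with earlier results of these data known, so no p is given over a list. Members named with values are those at an unadjusted p under 0.05, the 10 highest, the 5 largest differences in each direction, the paralog pairs and *Uba1*. *Rnf8*, *Rnf146*, *Rnf152*, *Rnf207*, *Rnf43* and others that groups or lists turn on were added after their values were seen. Protein lengths, RING matches and identities (Biopython 1.88) were computed from GENCODE M39 coding sequences in place of RefSeq proteins. *Rnf165* was not matched by symbol. The values of 1 tested member, which is in all counts over the family, are not reported here. The limma p-values set the difference between the groups against the spread between these muscles, which is pooled in part over genes. Without the replicate block they take no account of which legs share a mouse.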

Additional observations from a re-analysis of the deposited data

Results flagged for a closer look

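Within each group of 4 muscles, the highest or the lowest muscle was set against the other 3 by Dixon's 95% limit for 57 tested members and *Uba1*. Of the 116 groups searched, 7 held a muscle apart, and chance gives about 5.8. In siNT replicate 4, *Rnf44* was at 11.5 TPM beside 14.0 TPM in the other siNT muscles, *Rnf144a* was at 2.01 TPM beside 3.61 to 3.71 TPM, *Rnf2* was at 7.96 TPM beside 6.89 to 7.03 TPM, and *Rnf14* was at 34.2 TPM beside 30.8 to 31.2 TPM. In siNT replicate 2, *Rnf8* was at 2.95 TPM beside 2.85 to 2.87 TPM. In siUBA1 replicate 3, *Rnf213* was at 8.61 TPM beside 3.57 to 3.85 TPM. In siUBA1 replicate 4, *Rnf217*, an RBR ligase, was at 2.76 TPM beside 3.65 to 3.77 TPM.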

How the results depend on the processing

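No member passed an adjusted p of 0.05 in any alternative. The count of members higher at an unadjusted p under 0.05 was 9, and it was 2 after median-ratio scaling, 3 after quantile normalization, 3 under the replicate block and median-ratio scaling together, and 15 after rescaling without mitochondrial genes. The count of members lower was 1, and it was 5, 5 and 6 with the first 3 of these. It was 0 at a mean of 5 TPM or more, a filter that leaves out *Rnf125* itself. The median log2FC of the members was 0.10 and became -0.0081 with quantile normalization. These scalings also moved all genes, whose shares are given above. With the replicate block alone the counts were 9 and 1, the median log2FC was 0.10, and the only changes of call were those given above. When single muscles were left out, the higher count ranged from 4 to 12, the lower count from 1 to 2, the adjusted count from 0 to 0 and the median log2FC from 0.08 to 0.13. The higher count was 4 without siNT replicate 1, 5 without siNT replicate 2 and 4 without siUBA1 replicate 3, and the lower count was 2 without siUBA1 replicate 1. Of all genes, 12.4%, 10% and 10.5% were called higher in the first 3 of these fits, beside 6.90%, 8.62% and 6.90% of the members, and 2.19% were called lower in the last, beside 3.45%. The higher count was 12 without siNT replicate 4 or without siUBA1 replicate 4 (20.7% of the members, beside 15.9% and 17.7% of all genes). The cause was not tested. The log2FC of the 18 members followed over the alternatives kept its sign in each of them. An unadjusted p under 0.05 was found in 17 of 17 alternatives for *Rnf128*, 16 of 16 for *Rnf125*, 15 of 16 for *Rnf135* and 15 of 17 for *Rnf126*. TPM keep no depth, so the counting error of low members is unknown, and 4 muscles per group limit the precision.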
